A study of Homo sapiens with 4 samples.

Results

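Semaphorins, with their plexin and neuropilin receptors, were followed in HCT116 cells, a long-established line from a human colorectal carcinoma, after transfection with an siRNA against TET1 (2 arrays) or with a control siRNA (2 arrays). TET1 is an enzyme that converts 5-methylcytosine in DNA to oxidised forms, and the study looked for genes under its control in colorectal cancer. The members are all probe sets whose single annotated gene symbol begins with SEMA and a digit, begins with PLXN and a letter from A to D, or is NRP1 or NRP2. The rule took 85 of 54675 probe sets, which stand for 31 genes: 45 probe sets of 20 semaphorin genes (the ligands) and 40 probe sets of 9 plexin and 2 neuropilin genes (the receptors). All groups were grown and transfected alike, in a serum-containing medium with a lipid reagent, and differ only in the siRNA. The labels name 1 TET1 siRNA group and 1 control siRNA group in 1 cell line, so loss of TET1 and other effects of the siRNA cannot be told apart. The time between transfection and harvest is not given in the sources used here.

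Semaphorins are secreted or membrane-bound proteins with a shared extracellular sema domain, first described as cues that repel growing axons and since found in vessels, immune cells and epithelial tumours. They signal through plexins, single-pass receptors whose cytoplasmic part acts on small GTPases of the Ras and Rap families. Most secreted class 3 semaphorins bind a neuropilin, which has a short cytoplasmic tail and hands the signal to a plexin of type A or D. Membrane-bound class 4 semaphorins bind B-type plexins, class 6 semaphorins bind A-type plexins, and the membrane-anchored class 7 semaphorin binds plexin C1 and integrin beta 1.

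Each array gave 1 signal per probe set in arbitrary units on a linear scale. Median signals were 13.9 and 14.4 on the TET1 siRNA arrays and 14.3 and 15.5 on the control siRNA arrays. Between arrays, log2 values of the 27306 probe sets tested had a Pearson correlation of 0.9887 within the TET1 siRNA pair, 0.9879 within the control siRNA pair and 0.9741 to 0.976 between the groups, where probe sets are not independent replicates. The brighter TET1 probe set read 14.6 and 15 with TET1 siRNA against 58.1 and 59.6 with control siRNA, a log2 difference of -1.28 (SE 0.19, limma adjusted p = 0.00127). Among epithelial markers 5 of 12 exceeded a signal of 30 (EPCAM, CDH1, KRT8, KRT18 and KRT19), while the intestinal markers VIL1, CDX1, CDX2, KRT20, CEACAM5, LGR5 and GPA33 did not. The summed signal of these markers was 19505.8 and 19568.9 with TET1 siRNA against 17548.5 and 18183.2 with control siRNA, a sum carried by the keratins and EPCAM. Of these, KRT8 alone passed (log2 difference 0.32, limma adjusted p = 0.00887). CDH1, which encodes E-cadherin, went the other way, at 474.8 and 394 with TET1 siRNA against 925.1 and 1059 with control siRNA (log2 difference -1.16, limma adjusted p = 2.78e-05). Of markers of cell types foreign to the line, 1 of 8 endothelial, 1 of 8 fibroblast, 0 of 7 lymphocyte and 0 of 6 myeloid genes exceeded 30, and 4 of 10 neuronal genes did. The endothelial and fibroblast genes above 30 rose: ESAM read 67.5 and 60.6 with TET1 siRNA against 4.7 and 25.6 with control siRNA (limma adjusted p = 0.00458), and COL1A1 read 337.4 and 451.9 with TET1 siRNA against 296.2 and 258.9 with control siRNA (limma adjusted p = 0.0242). Every endothelial marker other than ESAM stayed at 25.1 or below on every array, and the highest of these readings was of PECAM1. The summed endothelial signal was 131.4 and 96.8 with TET1 siRNA against 54.1 and 85.9 with control siRNA, and the fibroblast sum was 398.6 and 520.1 with TET1 siRNA against 359 and 324.9 with control siRNA. The neuronal genes above 30 were TUBB3, the brightest, SYT1, MAP2 and SNAP25. SYT1 rose, at 1078 and 1016.9 with TET1 siRNA against 645.7 and 760.3 with control siRNA (limma adjusted p = 0.00103), and the other 3 did not pass. The summed neuronal signal was 3695.1 and 3562.3 with TET1 siRNA against 2921.3 and 3111.4 with control siRNA. The part of all these markers in the results was not tested.

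A minority of the family gave a clear signal in HCT116 cells. Of the 85 probe sets, 25 had a mean signal above 30 over the 4 arrays, and they belong to 15 of the 31 genes. Among ligands these were SEMA3A, SEMA3C, SEMA3F, SEMA4B, SEMA4C, SEMA4D, SEMA4F, SEMA4G, SEMA6A, SEMA6B and SEMA7A (18 of 45 probe sets, 11 of 20 genes). Among receptors they were PLXNA1, PLXNA3, PLXNB2 and PLXND1 (7 of 40 probe sets, 4 of 11 genes). No neuropilin probe set exceeded 30: the brightest of 15 was one of NRP2, at 24.9. Next to the limit, the highest mean signals below it were 26.1 for a SEMA4F probe set, 24.9 for NRP2 and 21.2 for a SEMA3A probe set, and the lowest above it were 31.8 for PLXNA3, 32.0 for PLXND1 and 43.0 for SEMA6B.

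The genes without a probe set above 30 are SEMA3B, SEMA3D, SEMA3E, SEMA3G, SEMA4A, SEMA5A, SEMA5B, SEMA6C, SEMA6D, PLXNA2, PLXNA4, PLXNB1, PLXNB3, PLXNC1, NRP1 and NRP2. Of these 16 genes, PLXNA2, NRP1 and NRP2 still had a probe set bright enough to be tested. Testing used each probe set whose mean log2(signal + 16) exceeded the median over non-control probe sets, which corresponds to a signal of 13.1. That left 35 member probe sets of 18 genes, and the other 50 (mean signals 1.2 to 14.5) were not tested. In 2 of the 35, SEMA3A 244849_at and SEMA4F 208124_s_at, the control siRNA mean exceeded the limit and the TET1 siRNA mean did not, so that a lower value after TET1 siRNA was favoured by the filter. A low signal on an array does not show that a transcript is absent. One further probe set is annotated to both SEMA3B and a microRNA gene and was left out. It read 3.7 and 21 with TET1 siRNA against 21.8 and 8 with control siRNA.

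**Figure D1:**
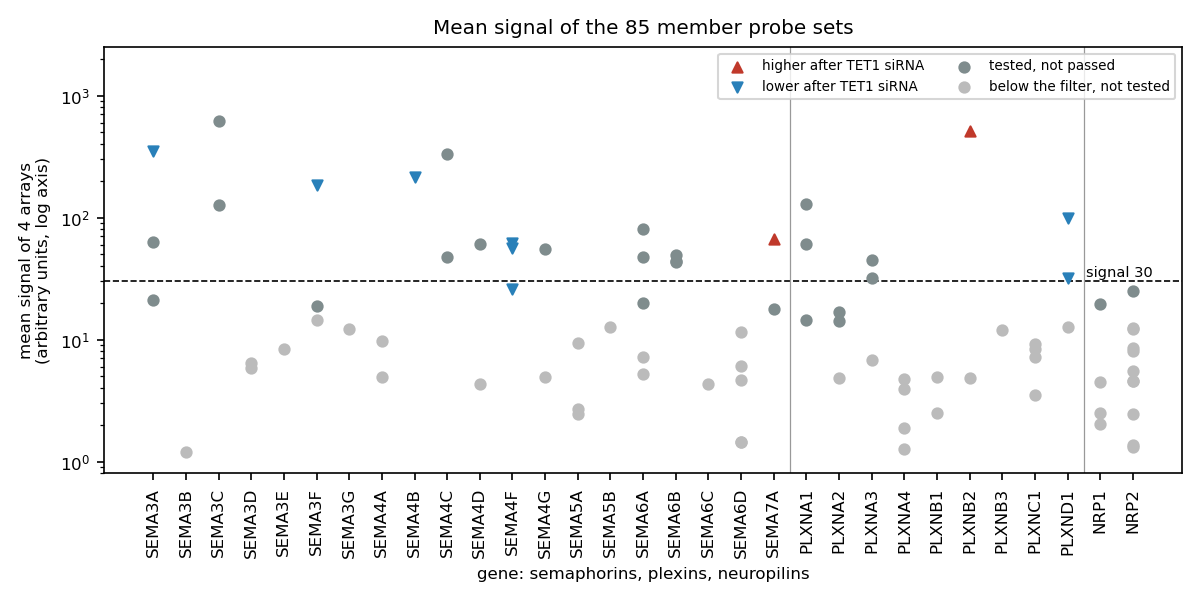
Mean signal of each of the 85 member probe sets over 4 arrays (vertical axis, arbitrary units, log scale), by gene, with semaphorins left, plexins in the middle and neuropilins right. Triangles mark probe sets that were higher or lower after TET1 siRNA, dark circles those tested that did not pass and pale circles those not tested; 25 probe sets lie above the dashed line at 30, none of them a neuropilin.

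Most semaphorin probe sets tested read lower after TET1 siRNA, and so did 8 of 12 receptor probe sets, with a smaller median difference. Semaphorin genes SEMA3A, SEMA3F, SEMA4B and SEMA4F fell and SEMA7A rose, while among receptors PLXND1 fell and PLXNB2 rose. Of 35 member probe sets tested, 2 rose, 8 fell and 25 did not pass at a limma adjusted p of 0.05 (28.6% called). Of all 27306 probe sets tested, 16.1% were called, with 7.76% higher and 8.31% lower. Among the 8 that fell, 7 passed the filter in both groups. Among ligands 6 of 23 probe sets fell and 1 rose, and among receptors 2 of 12 fell and 1 rose. The median log2 difference, on the log2(signal + 16) scale, was -0.35 for ligand probe sets and -0.046 for receptor probe sets, beside -0.0098 for all probe sets tested. A negative difference was found in 18 of 23 ligand and 8 of 12 receptor probe sets, against 51.4% of all probe sets tested. The ligand count and median include SEMA3A 244849_at and SEMA4F 208124_s_at, whose lower values were favoured by the filter. In whole cultures fewer cells of a type and less RNA per cell cannot be told apart.

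Both TET1 siRNA arrays lay below both control siRNA arrays in 13 of the 23 ligand probe sets and 4 of the 12 receptor probe sets. That order held for 28.9% of all probe sets tested. The 13 include SEMA3A 244849_at and SEMA4F 208124_s_at, which passed the filter through control siRNA values alone, so that their order was favoured in advance. Both TET1 siRNA arrays lay above both control siRNA arrays in 1 ligand and 1 receptor probe set, and in 27.3% of all probe sets tested. The difference between ligands and receptors was not tested, since the members were chosen with results known and probe sets of 1 gene share transcripts. Without TET1 siRNA replicate 1 the medians were -0.50 for ligands and -0.15 for receptors. The receptor median was 0.020 without TET1 siRNA replicate 2 and -0.17 without control siRNA replicate 2. Instead of 8 falling member probe sets there were 4 without control siRNA replicate 1, where 5.88% of all probe sets fell, and 4 without control siRNA replicate 2, where 5.2% did.

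**Figure D2:**
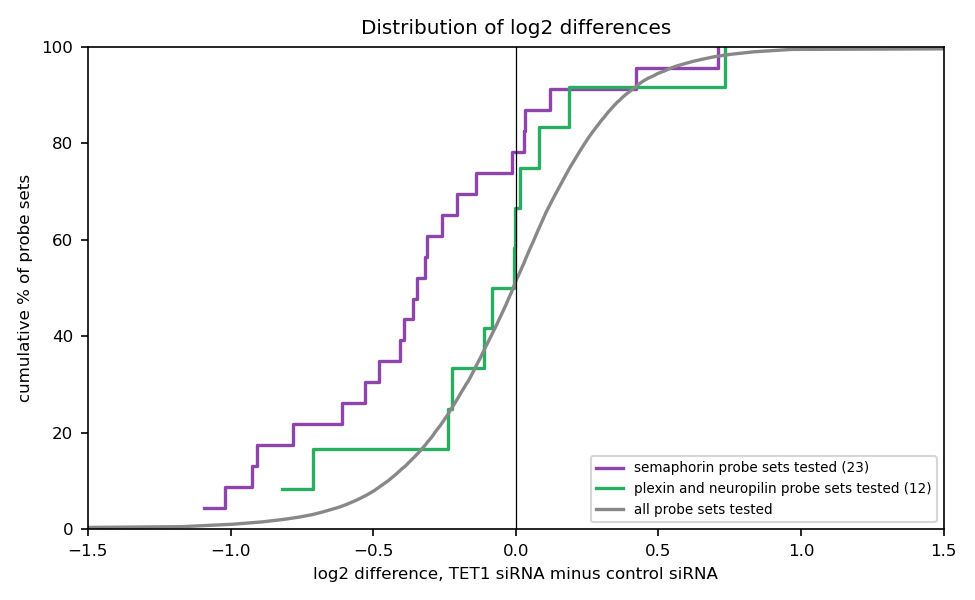
Cumulative share of probe sets (vertical axis, %) by log2 difference of TET1 siRNA minus control siRNA (horizontal axis), for the 23 semaphorin probe sets tested, the 12 plexin and neuropilin probe sets tested and all 27306 probe sets tested. The semaphorin line crosses its midpoint at -0.35, left of the other lines, which cross at -0.046 and -0.0098.

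Counted by gene, with the brightest probe set standing for each, 7 of 18 member genes tested passed. SEMA3A, SEMA3F, SEMA4B, SEMA4F and PLXND1 fell, SEMA7A and PLXNB2 rose, and 11 did not pass. In the same fit 21.9% of 12389 genes passed, 11.2% higher and 10.6% lower. The median log2 difference was -0.35 over 11 ligand genes and -0.11 over 7 receptor genes, beside 0.0098 over all genes tested. Of 12 member genes with 2 or more probe sets tested, 4 had differences of a single sign and 8 of both signs, so the choice of probe set bears on single genes.

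DNA before the gene start is shown for SEMA4F and PLXND1, which fell, and for PLXNA1, which did not pass. Each has 1 listed window, and that window ends where the annotated gene begins. NRP2, PLXNA2 and PLXNA3, which did not pass, also meet this condition and are not shown. Sequences are the 250 bases before the start from RefSeq (GRCh38.p14), 5′ to 3′ on the gene's strand, and capitals mark CG, the dinucleotide at which DNA is methylated and on which TET1 acts. DNA methylation was not measured in these samples. The SEMA4F window is chr2:74653997-74654246 on the plus strand, the PLXND1 window is chr3:129606677-129606926 on the minus strand, and the PLXNA1 window is chr3:126982865-126983114 on the plus strand.
SEMA4F: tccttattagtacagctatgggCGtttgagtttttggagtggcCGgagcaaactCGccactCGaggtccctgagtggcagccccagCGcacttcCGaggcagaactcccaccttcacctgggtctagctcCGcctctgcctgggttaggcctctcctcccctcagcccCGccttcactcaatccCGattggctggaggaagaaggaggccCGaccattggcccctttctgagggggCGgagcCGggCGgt
PLXND1: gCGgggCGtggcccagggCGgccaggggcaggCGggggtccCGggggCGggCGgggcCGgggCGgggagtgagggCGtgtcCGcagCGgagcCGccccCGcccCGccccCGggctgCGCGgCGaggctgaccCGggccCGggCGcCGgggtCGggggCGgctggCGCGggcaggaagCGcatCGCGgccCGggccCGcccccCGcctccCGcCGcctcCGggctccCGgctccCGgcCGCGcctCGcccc
PLXNA1: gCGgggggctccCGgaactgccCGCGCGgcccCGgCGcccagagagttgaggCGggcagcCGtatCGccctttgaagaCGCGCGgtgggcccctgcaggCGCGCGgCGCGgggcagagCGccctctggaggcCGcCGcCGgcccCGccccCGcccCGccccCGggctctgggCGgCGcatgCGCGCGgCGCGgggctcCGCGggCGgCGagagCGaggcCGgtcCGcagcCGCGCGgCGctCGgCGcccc

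These stretches held 13 CG in SEMA4F, 41 in PLXND1 and 46 in PLXNA1. The windows of NRP2, PLXNA2 and PLXNA3 held 29, 27 and 41, so PLXNA1 is the highest of these genes that did not pass. Over all 35116 windows of that length in the table, each before a listed transcript start, the median was 11, with quartiles of 3 and 23. PLXND1 had more CG than 98.3% of windows and PLXNA1 more than 99.6%, while SEMA4F lay near the middle, with more than 53.4%. Of the 31 member genes 27 had a window, 48 windows in all, with a median of 15 CG and a range of 1 to 46. SEMA3A, SEMA6A, SEMA6B and NRP1 had none. In 20 genes a window ended at the outermost annotated start, and the other windows of members, among them those of PLXNB2 and SEMA4C, did not. Of the 48 windows 30 held GGGCGG on either strand, against 42.6% of all windows, and 1, of SEMA3E, held TATAAA, against 10.7% of all windows. GGGCGG itself contains a CG. A match of letters is a description and not a binding site. The array does not tell which start of a gene was in use.

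The secreted class 3 semaphorins were led by SEMA3A, which collapses growth cones through neuropilin 1 and A-type plexins. Its brightest probe set (206805_at) read 221.2 and 212.6 with TET1 siRNA against 482.4 and 479.3 with control siRNA. The groups lay far apart and the arrays of each group close together. The means were 216.9 ± 6.08 with TET1 siRNA and 480.85 ± 2.19 with control siRNA (SD, n = 2 each), a signal 2.22-fold lower. The log2 difference was -1.09 (SE 0.094, limma adjusted p = 4.75e-05). Its other probe sets were dimmer and did not pass. One (244163_at) read 31.2 and 79.4 with TET1 siRNA against 76.9 and 64 with control siRNA, so that its groups overlapped. It passed without TET1 siRNA replicate 2 (log2 difference -0.87, limma adjusted p = 0.0263) and had the opposite sign without TET1 siRNA replicate 1 (0.15). The dimmest (244849_at) read 7.1 and 15.7 with TET1 siRNA against 37.3 and 24.5 with control siRNA, with a log2 difference of -0.78 (limma adjusted p = 0.0589). That probe set passed the filter through its control siRNA values alone, so its sign adds nothing.

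SEMA3F, a neuropilin 2 ligand encoded in a region of chromosome arm 3p that is often lost in lung cancer, fell by less. Its brightest probe set (35666_at) read 170.1 and 144.9 with TET1 siRNA against 215.1 and 207.6 with control siRNA. The groups did not overlap. The log2 difference was -0.39 (SE 0.12, limma adjusted p = 0.0474), and the call was lost in 9 of 13 alternative settings, with adjusted p up to 0.294. It did not pass without TET1 siRNA replicate 2 (limma adjusted p = 0.249), control siRNA replicate 1 (0.157) or control siRNA replicate 2 (0.120). Another SEMA3F probe set (209730_at) read 25.8 and 9.1 with TET1 siRNA against 23.5 and 16.3 with control siRNA, with overlapping groups.

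SEMA3C, a secreted ligand of neuropilins and plexin D1, gave readings that depended on the probe set. The brighter (203789_s_at) read 629.1 and 619.9 with TET1 siRNA against 626.2 and 598.7 with control siRNA, a log2 difference of 0.028 (95% interval -0.15 to 0.21). The dimmer (203788_s_at) read 97.2 and 118.1 with TET1 siRNA against 148.5 and 146.3 with control siRNA. There both TET1 siRNA arrays lay below both control siRNA arrays, with a log2 difference of -0.41 (limma adjusted p = 0.066).

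Among membrane-bound class 4 semaphorins, SEMA4B and SEMA4F fell. SEMA4B, a transmembrane semaphorin, has 1 probe set (234725_s_at), which read 138.4 and 146.2 with TET1 siRNA against 283.4 and 286.2 with control siRNA. The spread within each group was small beside the gap between them. The means were 142.3 ± 5.52 with TET1 siRNA and 284.8 ± 1.98 with control siRNA (SD, n = 2 each), a signal 2.00-fold lower after TET1 siRNA. The log2 difference was -0.93 (SE 0.11, limma adjusted p = 2.86e-04).

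SEMA4F, a transmembrane semaphorin found in brain, fell in both of its probe sets that passed the filter in each group. The first (228660_x_at) read 28.7 and 34.2 with TET1 siRNA against 81.3 and 78.9 with control siRNA, a log2 difference of -1.02 (SE 0.17, limma adjusted p = 0.00246). The second (210124_x_at) read 54.5 and 38.2 with TET1 siRNA against 76.6 and 79.9 with control siRNA, a log2 difference of -0.61 (SE 0.18, limma adjusted p = 0.0418). The dimmest (208124_s_at) read 21.3 and 6.5 with TET1 siRNA against 39.1 and 37.6 with control siRNA, a log2 difference of -0.91 (SE 0.26, limma adjusted p = 0.0364), and was tested only because its control siRNA values are high. In none of these probe sets did the groups overlap. The calls of 210124_x_at and 208124_s_at were lost without TET1 siRNA replicate 2 (limma adjusted p = 0.235 and 0.218) and without either control siRNA array, while that of 228660_x_at passed whichever array was left out. The suffixes _x_at and _s_at mark probe sets whose probes may also match other transcripts or several transcripts of a gene, and every SEMA4F probe set carries one.

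The other class 4 genes above the limit did not pass. SEMA4C, a ligand of plexin B2, read 328.4 and 338.3 with TET1 siRNA against 353.8 and 300.2 with control siRNA by its brighter probe set (46665_at), with overlapping groups and a log2 difference of 0.031 (95% interval -0.20 to 0.26). Its dimmer probe set (219039_at) read 44.9 and 37.1 with TET1 siRNA against 55.6 and 53.6 with control siRNA. SEMA4D, also known as CD100 and the ligand of plexin B1, read 66.4 and 36.9 with TET1 siRNA against 53 and 86 with control siRNA (203528_at). The spread of SEMA4D within each group was wider than the gap between the group means. SEMA4G, for which plexin B2 is a receptor in mouse, read 45.9 and 40.9 with TET1 siRNA against 77.5 and 57.2 with control siRNA (219194_at). Its groups did not overlap, and its log2 difference was -0.48 (limma adjusted p = 0.105).

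Class 6 semaphorins, transmembrane ligands of A-type plexins, gave no call in 6 probe sets tested, with log2 differences from -0.53 to 0.42. SEMA6A read 75 and 68.2 with TET1 siRNA against 77.7 and 101 with control siRNA by its brightest probe set (223449_at). A second SEMA6A probe set (225660_at) read 33.5 and 61.4 with TET1 siRNA against 56.6 and 37.8 with control siRNA, with overlapping groups. SEMA6B read 34.4 and 30.3 with TET1 siRNA against 50.7 and 56.7 with control siRNA in the probe set with the most negative difference of the class (223567_at). The SEMA6B groups were apart there, with a limma adjusted p of 0.0745, but they overlapped in its other probe sets. Those read 51.8 and 37.1 with TET1 siRNA against 51.4 and 55.2 with control siRNA (224182_x_at), and 28.8 and 66.7 with TET1 siRNA against 32.7 and 48.4 with control siRNA (220778_x_at). No class 5 probe set was bright enough to be tested.

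SEMA7A, a semaphorin held in the membrane by a lipid anchor and known on lymphocytes and on red cells, was the ligand that rose. Its brighter probe set (230345_at) read 94.8 and 77.6 with TET1 siRNA against 44.1 and 48.6 with control siRNA. Both TET1 siRNA arrays lay well above the control siRNA arrays. The means were 86.2 ± 12.2 with TET1 siRNA and 46.35 ± 3.18 with control siRNA (SD, n = 2 each), a signal 1.86-fold higher, and the log2 difference was 0.71 (SE 0.17, limma adjusted p = 0.0149). Its dimmer probe set (210083_at) had the opposite sign, at 18.7 and 9.6 with TET1 siRNA against 18.8 and 23.6 with control siRNA (log2 difference -0.32, limma adjusted p = 0.436). The rise did not pass without TET1 siRNA replicate 1 (log2 difference 0.59, limma adjusted p = 0.117) or without control siRNA replicate 1 (0.66, limma adjusted p = 0.0624).

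**Figure D3:**
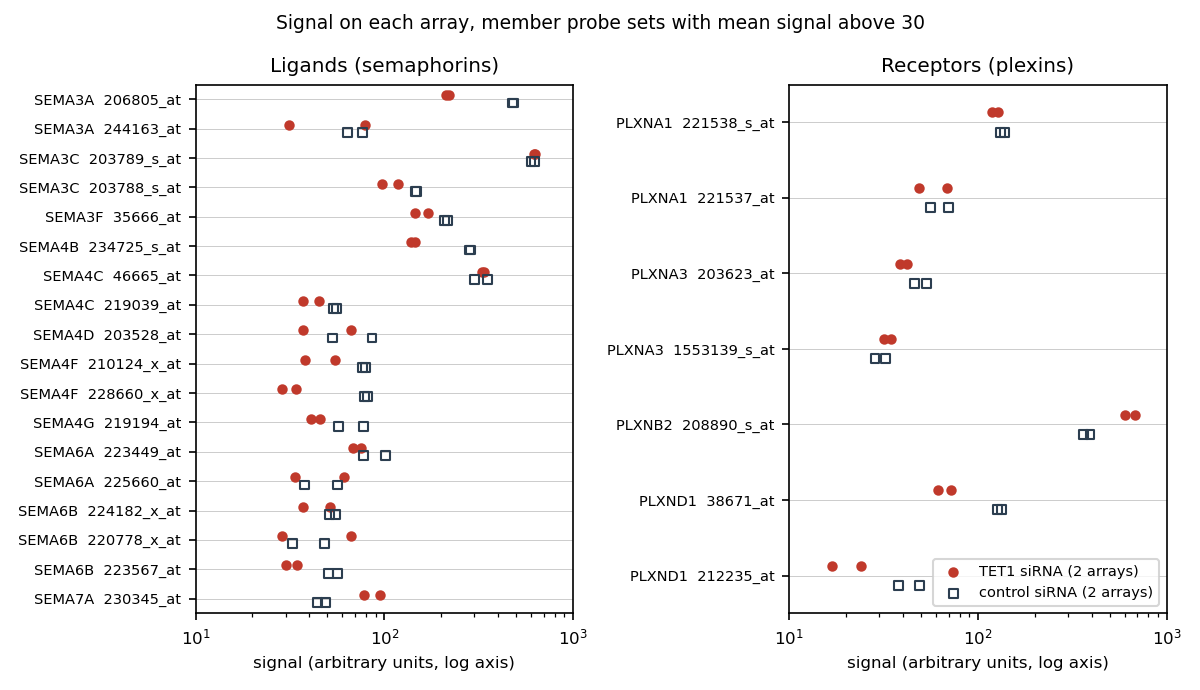
Signal on each array (horizontal axis, arbitrary units, log scale) of the 18 semaphorin and 7 plexin probe sets with a mean signal above 30, with filled circles for the 2 TET1 siRNA arrays and open squares for the 2 control siRNA arrays. SEMA3A (206805_at), SEMA4B and SEMA4F lie left of their controls without overlap, and SEMA7A and PLXNB2 lie right of theirs.

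PLXNB2, a receptor of class 4 semaphorins on epithelial and neural cells, was the receptor that rose. Its probe set 208890_s_at read 598.6 and 677.2 with TET1 siRNA against 361.9 and 392.4 with control siRNA. The groups lay clearly apart. The means were 637.9 ± 55.6 with TET1 siRNA and 377.15 ± 21.6 with control siRNA (SD, n = 2 each), a signal 1.69-fold higher after TET1 siRNA. The log2 difference was 0.73 (SE 0.095, limma adjusted p = 5.39e-04). The other PLXNB2 probe set was below the filter. The remaining B-type plexins, PLXNB1 (the SEMA4D receptor) and PLXNB3 (a SEMA5A receptor), had no probe set bright enough to be tested.

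PLXND1, the receptor of SEMA3E best known from blood vessel development, fell in both of its probe sets tested. The brighter (38671_at) read 61.4 and 72.5 with TET1 siRNA against 133 and 126.9 with control siRNA. The means were 66.95 ± 7.85 with TET1 siRNA and 129.95 ± 4.31 with control siRNA (SD, n = 2 each), a signal 1.94-fold lower, with a log2 difference of -0.82 (SE 0.14, limma adjusted p = 0.00322). The dimmer (212235_at) read 24 and 16.8 with TET1 siRNA against 38 and 49 with control siRNA, a log2 difference of -0.71 (SE 0.21, limma adjusted p = 0.0435). Neither probe set showed overlapping groups. The call of the dimmer probe set was lost in 10 of 13 alternative settings, including when any 1 array was left out, with adjusted p up to 0.296. SEMA3E itself was not bright enough to be tested.

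The A-type plexins, which carry the signal of neuropilins and of class 6 semaphorins, did not pass in any of 7 probe sets tested, with log2 differences from -0.22 to 0.19. PLXNA1 read 119.5 and 127.9 with TET1 siRNA against 138.1 and 131.5 with control siRNA (221538_s_at), a log2 difference of -0.11 (95% interval -0.39 to 0.17). A second PLXNA1 probe set (221537_at) read 68.9 and 48.9 with TET1 siRNA against 69.8 and 56.1 with control siRNA, with overlapping groups. PLXNA3 read 42.1 and 38.5 with TET1 siRNA against 53.3 and 46.4 with control siRNA in its brighter probe set (203623_at). In its other probe set (1553139_s_at) the PLXNA3 groups overlapped, at 31.8 and 34.5 with TET1 siRNA against 32.4 and 28.5 with control siRNA.

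Neuropilins, the coreceptors of class 3 semaphorins and of VEGF-A, had 2 of 15 probe sets tested. NRP1 read 19.5 and 19.6 with TET1 siRNA against 21.7 and 17.9 with control siRNA (212298_at). NRP2 read 27.9 and 15.7 with TET1 siRNA against 30.1 and 26 with control siRNA (210841_s_at). Both genes had overlapping groups, with log2 differences of -0.0081 (95% interval -0.49 to 0.47) and -0.24 (-0.74 to 0.27). A p above the threshold does not show that the levels were alike, and differences within those intervals remain compatible with these values.

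**Figure D4:**
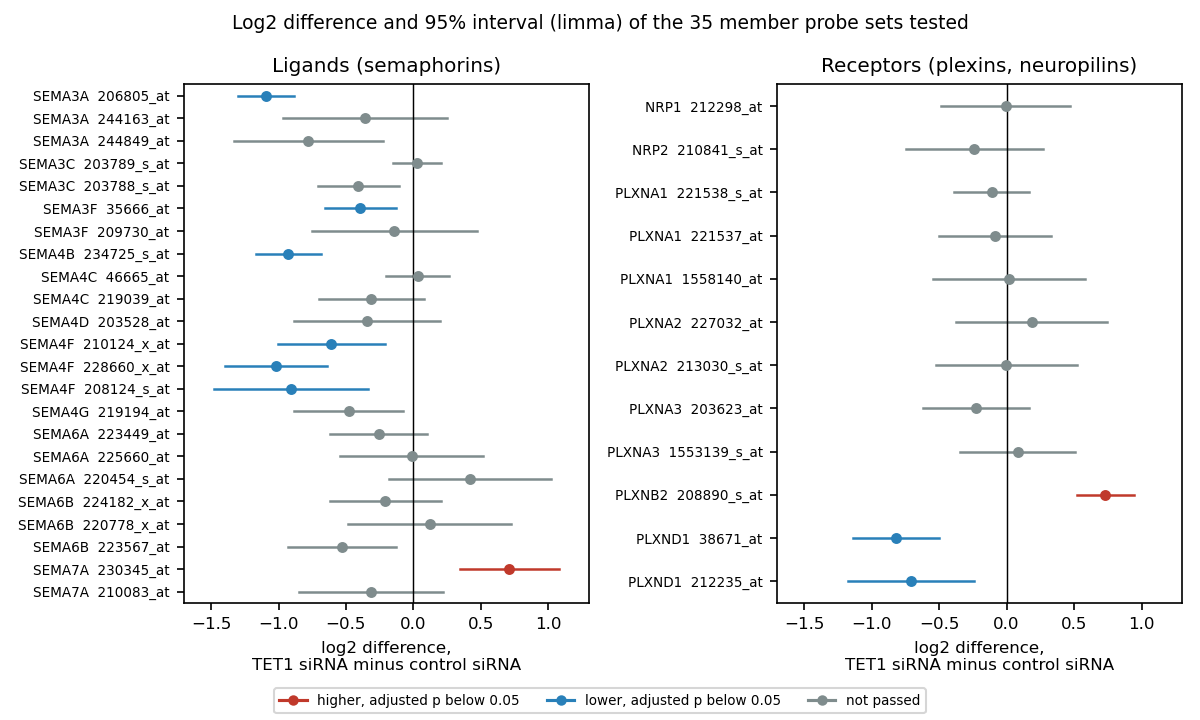
Log2 difference of TET1 siRNA minus control siRNA (horizontal axis) of the 35 member probe sets tested, with 95% intervals from limma, for semaphorins on the left and plexins and neuropilins on the right. The 8 probe sets that were lower belong to SEMA3A, SEMA3F, SEMA4B, SEMA4F and PLXND1, and the 2 that were higher belong to SEMA7A and PLXNB2.

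Set beside their known partners, ligands and receptors gave mixed pairs, described here from the values above. SEMA3A fell while its coreceptor gene NRP1 was dim and the plexin A genes did not pass. PLXNB2 rose while its ligand genes SEMA4C and, from mouse, SEMA4G did not pass. PLXND1 fell, while its ligand gene SEMA3C did not pass and SEMA3E was not bright enough to be tested. SEMA7A rose, its receptor gene PLXNC1 was not bright enough to be tested, and its other receptor subunit gene ITGB1 (integrin beta 1) rose. ITGB1 read 6328.9 and 6098.5 with TET1 siRNA against 5031.1 and 5250.5 with control siRNA, a log2 difference of 0.27 (SE 0.059, limma adjusted p = 0.00679).

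Genes that act with or after these receptors were followed by gene, with the brightest probe set standing for each. Of 34 plexin effectors tested, 5 rose, 3 fell and 26 did not pass, with a median log2 difference of 0.066, so that 23.5% passed beside 21.9% of all genes tested. FYN, a kinase downstream of SEMA3A, rose by 0.54 (limma adjusted p = 0.00328). ARHGEF12, the exchange factor LARG that binds the tail of B-type plexins, read 603.8 and 602.7 with TET1 siRNA against 938.7 and 1013 with control siRNA (log2 difference -0.68, limma adjusted p = 1.36e-04). TIAM1, an activator of Rac, fell by 0.49 (limma adjusted p = 0.00186). The list also holds PLXDC1 and PLXDC2, which share only a domain with plexins.

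A further 3 effectors that rose were ARHGAP35 (a GTPase-activating protein, 0.47), the kinase gene ROCK2 (0.35) and RRAS (0.31), a GTPase on which plexins act. The other that fell was DPYSL2 (log2 difference -0.29, limma adjusted p = 0.0498), which encodes CRMP2, an effector of SEMA3A in axons. These 4 were picked once their values were known. Of 9 other semaphorin binding partners tested, 1 rose (ITGB1) and none fell, with a median of -0.064. Thus 11.1% of them passed, beside 21.9% of all genes tested. None of 8 semaphorin proteases passed, among them FURIN, which cleaves class 3 semaphorins, and the median was -0.014. None of 4 VEGF-family ligands and receptors tested passed, with a median of -0.21. In the list of netrin, slit and RGM guidance genes, 1 of 17 tested rose and none fell (5.88% called), with a median of 0.038. It was SRGAP1, a GTPase-activating protein of slit and ROBO signalling, at 102.7 and 91 with TET1 siRNA against 33.6 and 37.8 with control siRNA (log2 difference 1.13, limma adjusted p = 7.06e-04).

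**Figure D5:**
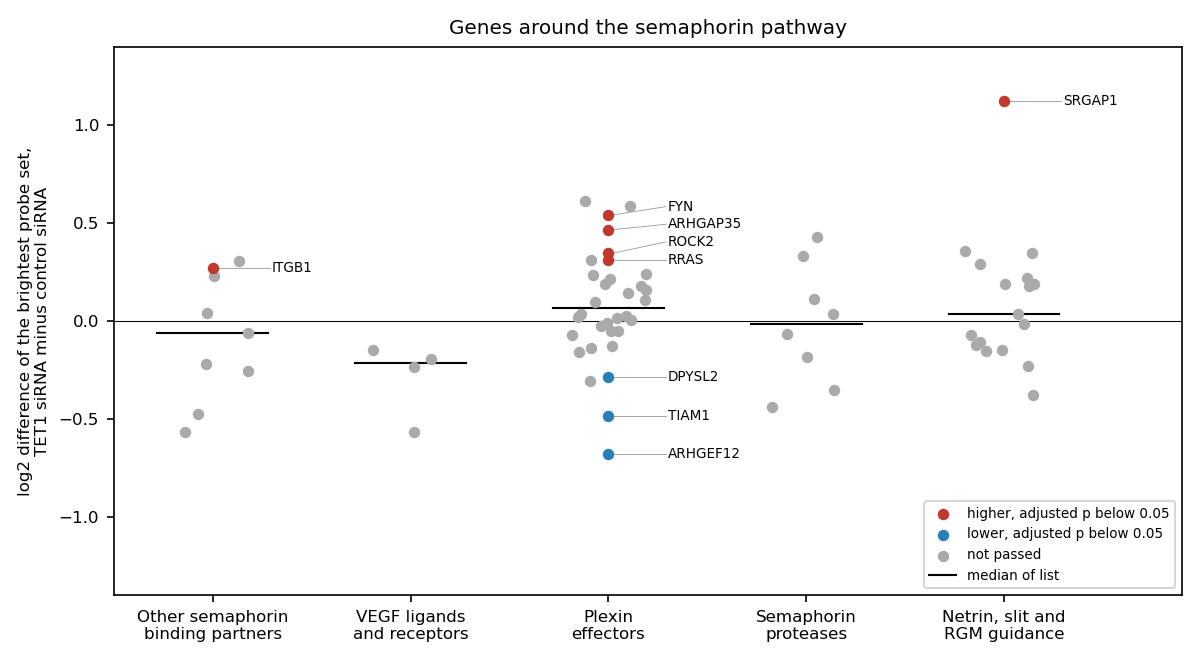
Log2 difference of TET1 siRNA minus control siRNA (vertical axis) of the genes tested in 5 lists around the semaphorin pathway, 1 point per gene shown by its brightest probe set, with a bar at each list's median. Coloured and named points passed at a limma adjusted p of 0.05: FYN, ARHGAP35, ROCK2, RRAS, ITGB1 and SRGAP1 were higher and ARHGEF12, TIAM1 and DPYSL2 were lower. A further effector that passed is counted in the median and not drawn.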

How the data were processed

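One Affymetrix GeneChip array was run for each of 2 TET1 siRNA and 2 control siRNA cultures of HCT116, described as biological duplicates, from 3 micrograms of total RNA with oligo(dT) priming, per the labels' protocols. The deposited table holds 1 linear intensity for each probe set. The authors scaled the arrays to a common trimmed mean, as the values show (100.0 with 2% trimmed at each end). Sources used here do not give the software, background step or build. Only 4 arrays limit the precision.

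After 62 control probe sets had been removed, log2(signal + 16), which understates changes of dim probe sets, was tested where its mean exceeded the median (4.86). limma 3.58.1 in R 4.3.3 (lmFit, eBayes with trend) gave two-sided tests of TET1 siRNA minus control siRNA, with Benjamini-Hochberg adjustment over all probe sets, or all genes, tested and a threshold of 0.05. The design leaves 2 residual and 8.73 prior degrees of freedom. Since exact permutation of 2 against 2 arrays reaches no p lower than 0.333, each p depends on limma's variance model. Platform symbols were updated through gene identifiers (41037 of 41091 probe sets with 1 symbol). Replicate numbers occur in both groups, and the labels state no pairing. The fit was tested on simulated data.

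Every member could be named, with array values for those above a mean signal of 30. Up to 4 genes of each list that passed were named by size of difference, and 1 of them, kept in the counts, is not reported here. Members and lists were chosen with earlier results of these data known. Alternatives were quantile and median scaling, pseudocounts of 1 and 64, limma without trend or moderation, the replicate number as a block, other filters and thresholds, other probe sets per gene and leaving out each array. Figures were drawn with matplotlib 3.10.9.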

Additional observations from a re-analysis of the deposited data

How the results depend on the processing

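SEMA3A (206805_at), SEMA4B, SEMA4F (228660_x_at) and PLXND1 (38671_at) kept direction and call in 12 of 13 alternatives, and PLXNB2 in 11. The exception was limma without moderation, where no member passed (lowest adjusted p 0.136). In that fit 7 of 35 members had an unadjusted p below 0.05, beside 5136 of all 27306 probe sets tested. PLXNB2 was also lost when eBayes had no trend (limma adjusted p = 0.0509). SEMA7A passed in 8 of 13. No called member changed sign. The brighter TET1 probe set ranged from -1.92 to -0.64 in log2 and missed the threshold only in limma without moderation (-1.28, adjusted p = 0.121). Member probe sets higher and lower numbered 2 and 4 after quantile normalization (3 ligands and 1 receptor lower, 7.89% of all probe sets lower). They numbered 2 and 4 after median centring (3 and 1, with 6.64% lower). When eBayes had no trend they numbered 0 and 4 (3 and 1, with 3.07% of all probe sets called). Limma without moderation gave 0 and 0 (0 and 0, with 0.00366% called). With no filter the numbers were 1 and 4 (3 and 1, with 4.22% called). Dropping probe sets ending in _x_at or _s_at gave 1 and 4, and the share over all probe sets was not counted there. At an adjusted p below 0.01 they were 1 and 4 (7.99% called). With the replicate number as a block the numbers were 2 and 7, with 1 receptor lower and 16.4% of all probe sets called. When any 1 array was left out they were 1 to 2 and 4 to 7, with 3 to 6 ligands and 1 receptor lower; a lone array was then taken to have the spread of the intact group. Member genes higher and lower numbered 2 and 3 when eBayes had no trend (7.94% of all genes called) and 0 and 0 in limma without moderation (0% called). They numbered 1 and 3 with no filter (8.9%) and 1 and 4 when the probe sets of a gene were averaged (14.4%). If _x_at and _s_at were dropped they numbered 1 and 3 (18.8%). With any 1 array left out, no more member genes rose or fell than with all 4 arrays. The ligand median was -0.44 and -0.20 with pseudocounts of 1 and 64, -0.21 with no filter and -0.50 to -0.32 when any 1 array was left out. The receptor median was -0.11 above a signal of 30 and -0.17 to 0.020 when any 1 array was left out. Across the 5 lists 7 of 71 genes tested rose and 3 fell, while 11.2% of all genes tested rose and 10.6% fell. The numbers were 2 and 1 when eBayes had no trend and 0 and 0 in limma without moderation. They were 2 and 1 when probe sets were averaged, and 4 and 1 if _x_at and _s_at were dropped. The shares of all genes called in these settings are those given above for member genes. With any 1 array left out, no more list genes rose or fell than with all 4 arrays. Deviations of same-numbered arrays correlated at 0.0066, so the numbers were not read as pairs. When any 1 array was left out, fewer probe sets and genes of the whole array passed as well. The cause of these shifts was not tested. Dim signals left 50 of 85 member probe sets untested.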
